A study of Mus musculus with 6 samples.

Results

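The 9 genes described here encode the proteins by which a cell detects viral or misplaced nucleic acid in its cytosol, together with the adaptors and kinases that pass the signal on. They were taken by name from the deposited gene table: Rigi (listed under its older symbol Ddx58), Ifih1, Dhx58, Mavs, Cgas, Sting1, Zbp1, Tbk1 and Eif2ak2. All 9 were found among 56636 genes. RNA of RAW264.7 cells, a wild-type mouse line with macrophage features that is labelled as mononuclear macrophage, had been sequenced after 24 h with 25-HC (3 libraries) or with vehicle (3 libraries). The labels used here give no dose and no full name for 25-HC, and by its title the series belongs to work on miR-9-5p released by cancer cells and cholesterol homeostasis. Both groups share the line, the medium with serum and antibiotics, and the time. Values are TPM, transcript abundance scaled for transcript length and library total, so the sequencing depth behind them is unknown. The labels do not state whether each library is a culture of its own, so the p-values cover the spread between these 6 libraries and no more, and that spread may be technical.

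Foreign RNA in the cytosol is bound by RIG-I (Rigi) and MDA5 (Ifih1), helicases whose CARD domains engage MAVS on the mitochondrial surface. LGP2 (Dhx58) is their relative without CARD domains and modulates them. DNA is bound by cGAS (Cgas), which makes the second messenger cGAMP for STING (Sting1) in the endoplasmic reticulum membrane. Both routes meet at the kinase TBK1, which phosphorylates the transcription factor IRF3 and so starts type I interferon transcription. ZBP1 binds nucleic acid in the Z form and can start cell death through RIPK3, and PKR (Eif2ak2) is a kinase that on binding double-stranded RNA phosphorylates the translation factor eIF2. Several of these genes are themselves induced by interferon in macrophages, through elements in which a pair of GAAA blocks lies a few bases apart.

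RefSeq promoters (build GRCm38.p6, 250 bases before to 50 after the start of the gene) were found for Rigi, Ifih1, Mavs, Cgas, Tbk1 and Eif2ak2. That is another build than the GRCm39 named in the submitters' processing notes, and no deposited value was read by these coordinates. No promoter entry was found for Dhx58 and Zbp1, and that of Sting1 was left out by its chromosome and not searched. These 3 genes were also higher in every 25-HC library, so the sequences cover only part of the separated genes. The promoters were searched on both strands for GAAANNGAAA, the core of the interferon-stimulated response element, and for GAAANGAAA, the same pair with 1 base between. The motifs were chosen with the sequences in view, and matches could overlap. TTCNNNGAA, the gamma-activated site bound by STAT factors, was searched too. It occurs in 8.3% of these promoters and among the 6 only in Eif2ak2, with its first base at -178. GAAANNGAAA occurs in 3.44% and GAAANGAAA in 3.17% of 32851 promoters of this length. Rigi, Ifih1 and Eif2ak2 each held GAAANNGAAA, and Rigi also held GAAANGAAA. In Mavs, Cgas and Tbk1 neither string of letters was found in this window. The first base of the match lay at position 3 from the start in Rigi (reverse strand), 33 in Ifih1 and 19 in Eif2ak2, with the shorter-spaced pair of Rigi at -60. The 3 promoters with a match are shown because their genes were higher in every 25-HC library on the deposited values, and that of Mavs because its libraries overlapped. Those of Cgas and Tbk1 are not shown. The split depends on the scaling given below. Tbk1, without a match, separated after median-ratio rescaling and after correction for transcript length, while Eif2ak2, with a match, overlapped after the latter. A link between match and difference was not tested. Capitals mark the GAAA pairs and not the gamma-activated site.
Rigi (chr4:40239776-40240075, minus strand): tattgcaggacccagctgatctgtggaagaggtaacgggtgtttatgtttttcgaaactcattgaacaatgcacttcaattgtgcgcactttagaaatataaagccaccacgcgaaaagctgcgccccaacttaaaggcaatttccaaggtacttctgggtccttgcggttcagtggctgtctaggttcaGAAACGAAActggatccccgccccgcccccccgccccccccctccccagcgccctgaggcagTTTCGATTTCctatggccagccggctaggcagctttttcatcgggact
Ifih1 (chr2:62646206-62646505, minus strand): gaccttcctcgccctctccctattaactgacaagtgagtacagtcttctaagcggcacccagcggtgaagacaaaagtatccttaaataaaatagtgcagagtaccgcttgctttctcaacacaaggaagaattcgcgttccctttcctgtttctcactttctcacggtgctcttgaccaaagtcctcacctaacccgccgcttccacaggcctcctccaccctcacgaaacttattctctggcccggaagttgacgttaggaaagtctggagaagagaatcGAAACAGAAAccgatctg
Eif2ak2 (chr17:78882523-78882822, minus strand): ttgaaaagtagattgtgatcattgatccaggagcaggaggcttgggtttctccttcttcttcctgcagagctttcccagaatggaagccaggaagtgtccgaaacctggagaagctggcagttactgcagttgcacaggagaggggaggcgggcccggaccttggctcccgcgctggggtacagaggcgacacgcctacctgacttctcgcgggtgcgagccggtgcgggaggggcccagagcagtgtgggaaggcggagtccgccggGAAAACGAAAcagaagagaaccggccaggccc
Mavs (chr2:131233813-131234112, plus strand): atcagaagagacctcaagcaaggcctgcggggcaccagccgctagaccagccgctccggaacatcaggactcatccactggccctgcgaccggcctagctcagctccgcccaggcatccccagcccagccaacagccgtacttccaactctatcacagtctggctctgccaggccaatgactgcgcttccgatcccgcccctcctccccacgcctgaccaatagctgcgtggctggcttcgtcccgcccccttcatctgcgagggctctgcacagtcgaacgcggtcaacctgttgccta
A match is a description of the sequence and no evidence that a factor bound there.

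The libraries were not equally alike. Across the 12092 genes that averaged 1 TPM or more, Pearson r of log2(TPM + 1) was 0.972 to 0.975 among the 25-HC libraries and 0.807 to 0.938 among the vehicle libraries. These are correlations across genes, which are not independent replicates. Vehicle 3 resembled the 25-HC libraries (r of 0.963 to 0.965) more than vehicle 1 (0.924 to 0.931) or vehicle 2 (0.792 to 0.802) did. Set against the 25-HC mean, log2(TPM + 1) changed by -0.228 per doubling of transcript length in vehicle 1, by -0.397 in vehicle 2 and by -0.0102 in vehicle 3. Genes at 1 TPM or more numbered 11971 to 12005 in the 25-HC libraries, against 11238, 9492 and 11994 in vehicle 1, 2 and 3. RNA quality was not measured in the files, so its part in these differences was not tested. The longest annotated transcripts of the 9 genes run from 2299 to 5470 bases. The part of this trend in each difference was not tested other than by the correction for length given below. The differences are also given against vehicle 3 alone. Of 10 macrophage markers 9 were at 1 TPM or more on average, with Mertk listed at 0, and their sum was 2537 to 2558 TPM in 25-HC and 1735 to 2595 TPM in vehicle libraries. Of these 9, 5 were higher in every 25-HC library (Adgre1, Itgam, Ptprc, Lyz2 and Fcgr1), beside 22.6% of all genes tested. Lower in every 25-HC library was 1 (Cd68), beside 8.1%. Cd68 was nearly equal, at 798.39 to 817.5 TPM in 25-HC and 818.02 to 836.37 TPM in vehicle libraries. Itgam, an integrin subunit, was at 62.4 to 71.4 TPM in 25-HC and 0.53 to 50.95 TPM in vehicle libraries, and Ptprc, the leukocyte antigen CD45, at 6.53 to 6.96 TPM in 25-HC and 0.28 to 4.04 TPM in vehicle libraries. Cd14, Csf1r and Spi1 overlapped between the groups and had their highest values in vehicle libraries. These markers moved in part like the sensor genes, and their part in the results was not tested. Markers of epithelial cells, fibroblasts, lymphocytes and neutrophils had no gene with a mean of 1 TPM. Their sums per list were at most 2.55 TPM in 25-HC and 2.65 TPM in vehicle libraries. In bulk RNA, fewer cells of a type and less RNA per cell cannot be told apart.

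On the deposited values, none of the 9 genes passed the test. Of the 7 that reached a mean of 1 TPM, 0 had an adjusted p under 0.05 by limma (lowest adjusted p = 0.389), against 1 gene higher (0.00827%) and 0 lower among all 12092. At an unadjusted p under 0.05 there were 3, all higher in 25-HC (Rigi, Dhx58 and Eif2ak2), against 8.24% of all genes higher. The values showed 2 patterns. Rigi, Dhx58, Sting1 and Eif2ak2, 4 of the 7, were higher in every 25-HC library than in every vehicle library, beside 22.6% of all genes tested. Mavs, Cgas and Tbk1 overlapped between the groups, and of these Mavs and Cgas had their highest value in vehicle 3. Ifih1 and Zbp1 stayed under 1 TPM on average and were not tested, but their groups did not overlap either. The 22.6% covers tested genes only, and no share was computed for genes at such low levels. The median log2 difference of the 7 was 1.19, beside 0.52 over all genes tested.

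**Figure D1:**
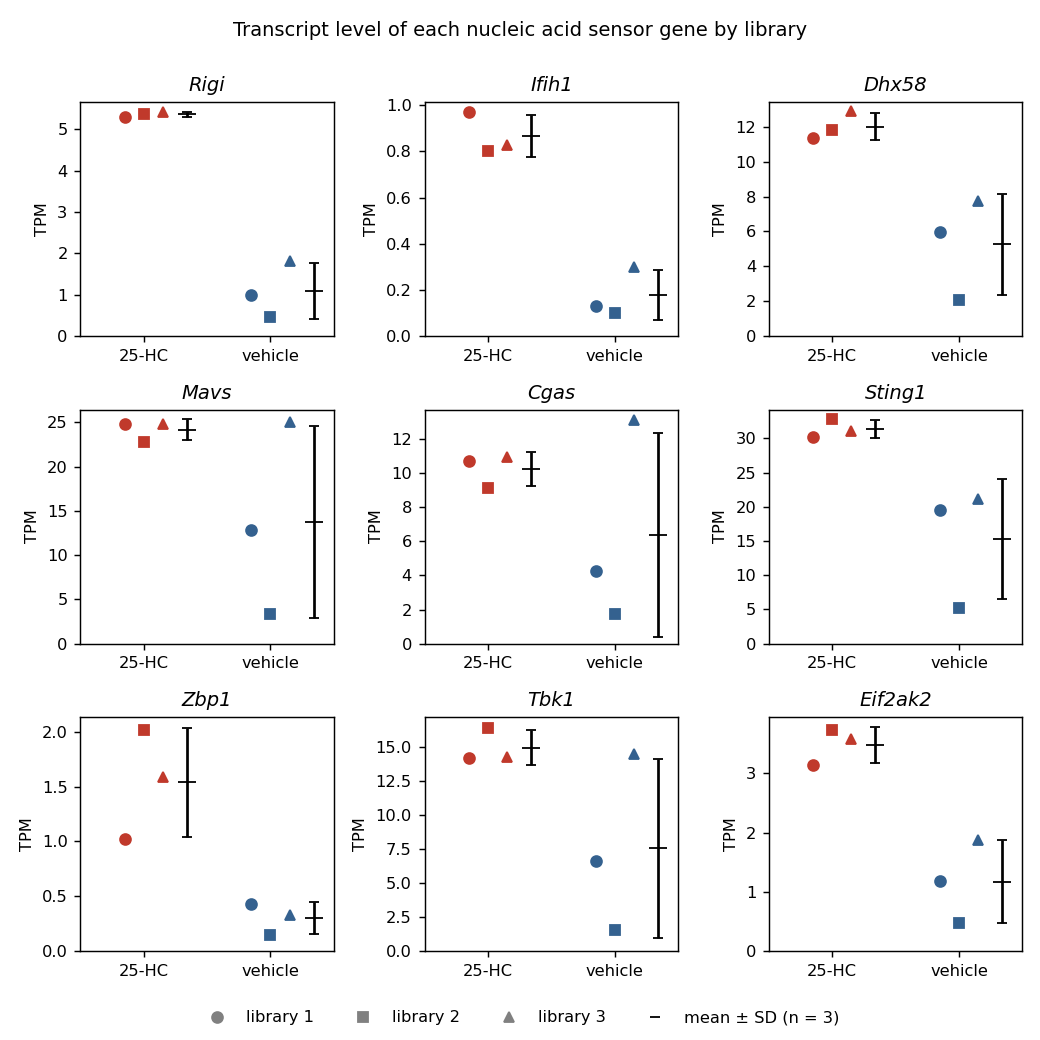
Level of the 9 genes in TPM (each y axis has its own range and starts at 0) in the 25-HC and the vehicle libraries, 1 point per library, with mean ± SD (n = 3). The 25-HC points lie above all vehicle points for Rigi, Ifih1, Dhx58, Sting1, Zbp1 and Eif2ak2, while for Mavs, Cgas and Tbk1 vehicle 3 lies among or above them.

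Among the RNA helicases, Rigi had the largest log2 difference of the 7 tested genes. It was at 5.30, 5.36 and 5.41 TPM in the 25-HC libraries, against 0.99, 0.47 and 1.82 TPM in vehicle 1, 2 and 3. The 25-HC libraries were nearly equal, and each lay far above the highest vehicle library. Mean levels were 5.36 ± 0.0551 TPM in 25-HC and 1.09 ± 0.681 TPM in vehicle (SD, n = 3 each), a 4.90-fold difference that was 2.94-fold over vehicle 3 alone. The log2 difference was 1.65 (SE 0.32, adjusted p = 0.389 by limma). It was 1.17 against vehicle 3 alone, where limma gave adjusted p = 0.0233 on the assumption that the lone library varies like the 25-HC libraries, and where 4.52% of all genes were called higher and 6.33% lower. Without vehicle 3 the difference was 1.89 (adjusted p = 0.0397 by limma), the lone call among the 7 genes, in a fit that called 5.55% of all genes higher. Without vehicle 2 it was 1.42 (adjusted p = 0.0924 by limma).

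Ifih1, the sensor of long double-stranded RNA, was the lowest of the 9. It was at 0.97, 0.80 and 0.83 TPM in 25-HC, against 0.13, 0.10 and 0.30 TPM in vehicle 1, 2 and 3. Every 25-HC library was above every vehicle library, at levels near the lower end of what 2 decimals resolve. The ratio of the means was 4.91, or 2.89 over vehicle 3. An exact two-sided permutation test gave p = 0.1, the smallest that 3 libraries against 3 allow.

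Dhx58, the CARD-less relative, was the most abundant helicase in both groups. It was at 11.4, 11.8 and 12.9 TPM in 25-HC, against 5.96, 2.04 and 7.75 TPM in vehicle 1, 2 and 3. The groups did not overlap, and vehicle 2 stood lowest. Means of 12.0 ± 0.792 TPM in 25-HC and 5.25 ± 2.92 TPM in vehicle (SD, n = 3 each) gave a 2.29-fold difference, or 1.55-fold over vehicle 3. Its log2 difference was 1.19 (SE 0.45, adjusted p = 0.389 by limma), and 0.57 against vehicle 3 alone. On the deposited values the ratio of Rigi to Dhx58 TPM was 0.42 to 0.467 in 25-HC and 0.166 to 0.235 in vehicle libraries. It does not remove the trend with transcript length, and the longest transcripts have 3874 bases for Rigi and 2412 for Dhx58. After correction for length, log2(TPM + 1) in vehicle 2 was 1.755 for Rigi and 2.617 for Dhx58. That gap was smaller than in any 25-HC library, while the gap was larger in vehicle 1 and 3. The ratio was chosen after the values were seen and carries no test.

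Mavs, the adaptor below RIG-I and MDA5, did not separate. It was at 24.9, 22.8 and 24.8 TPM in 25-HC, against 12.8, 3.39 and 25.0 TPM in vehicle 1, 2 and 3. Vehicle 3 was above all 3 treated libraries, so the 1.76-fold difference of the means (exact permutation p = 0.4, two-sided) rested on vehicle 1 and 2. The log2 difference was 1.11 (SE 0.64), 0.41 without vehicle 2, and -0.051 against vehicle 3 alone.

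Set against Mavs within the same library, which removes any factor common to the library, 2 of the other 8 genes separated. The ratio of Rigi to Mavs TPM was 0.213 to 0.235 in 25-HC and 0.0727 to 0.139 in vehicle libraries, 2.31-fold apart in the means. For Ifih1 it was 0.0335 to 0.039 in 25-HC and 0.0101 to 0.0295 in vehicle libraries. Both were higher in 3 of 3 treated libraries than in any vehicle library. The ratios of the other genes overlapped, and that of Dhx58, at 0.456 to 0.52 in 25-HC and 0.309 to 0.602 in vehicle libraries, did so with its highest ratio in vehicle 2. These ratios were chosen after the values were seen and carry no test. The share of all genes whose ratio to Mavs separates was not computed, so the count of 2 has no background beside it. They do not remove the trend with transcript length, and the longest transcripts have 3874 bases for Rigi, 5470 for Ifih1, 2412 for Dhx58 and 3057 for Mavs.

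**Figure D2:**
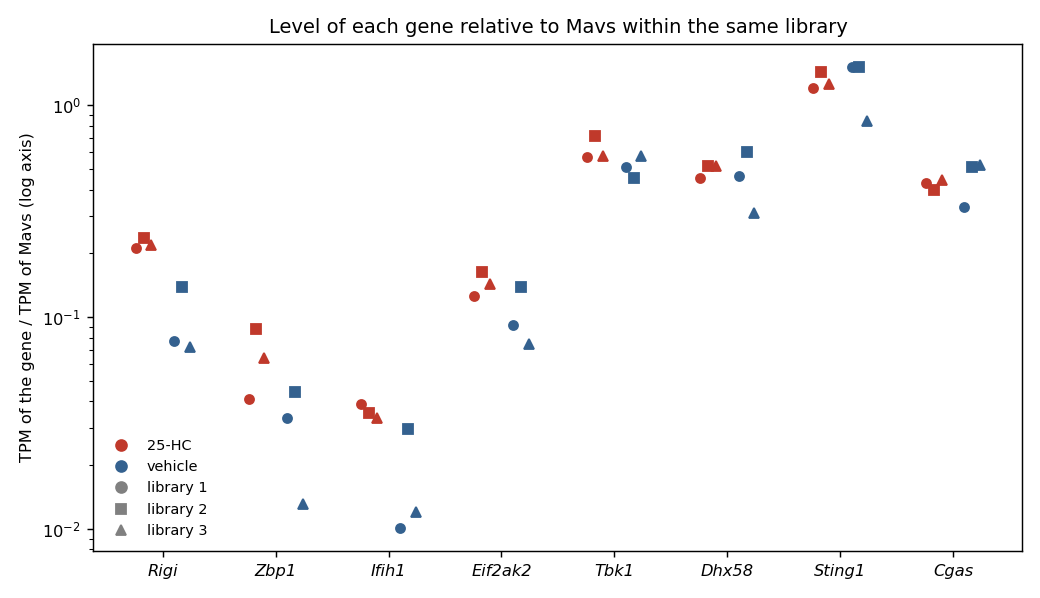
TPM of each gene divided by TPM of Mavs in the same library (log axis), 1 point per library, 25-HC left of vehicle for each gene. Rigi (0.213 to 0.235 in 25-HC, 0.0727 to 0.139 in vehicle) and Ifih1 are the genes whose groups do not overlap.

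On the DNA side, the sensor and its adaptor differed in pattern. Cgas was at 10.7, 9.12 and 10.96 TPM in 25-HC, against 4.24, 1.73 and 13.1 TPM in vehicle 1, 2 and 3. Vehicle 3 was the highest of all 6 libraries and vehicle 2 the lowest. The log2 difference was 0.94 (SE 0.61), the smallest of the 7 tested genes, and -0.33 against vehicle 3 alone (adjusted p = 0.204 by limma). Its annotated exons overlap those of Gm8093 on the opposite strand, which was at 1.86 to 2.32 TPM in 25-HC and 2.15 to 3.68 TPM in vehicle libraries. How the counting treated strand is not stated in the sources used.

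Sting1 was the most abundant of the 9 genes. It was at 30.1, 32.8 and 31.1 TPM in 25-HC, against 19.5, 5.14 and 21.1 TPM in vehicle 1, 2 and 3. All 25-HC libraries were above the vehicle libraries, with vehicle 1 and 3 close to each other and vehicle 2 far below. Means were 31.4 ± 1.36 TPM in 25-HC and 15.2 ± 8.78 TPM in vehicle (SD, n = 3 each), 2.06-fold apart, or 1.49-fold over vehicle 3. The log2 difference was 1.20 (SE 0.53, adjusted p = 0.389 by limma). It was 0.55 against vehicle 3 alone (adjusted p = 0.0379 by limma, same assumption as for Rigi) and 0.61 without vehicle 2. The ratio of Cgas to Sting1 TPM was 0.278 to 0.355 in 25-HC and spread from 0.218 to 0.621 in vehicle libraries.

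Zbp1, the sensor of Z-form nucleic acid, was close to the lower limit of the table. It was at 1.02, 2.01 and 1.59 TPM in 25-HC, against 0.43, 0.15 and 0.33 TPM in vehicle 1, 2 and 3. The groups did not overlap, and here vehicle 3 was not the highest vehicle library. The ratio of the means was 5.08, and 4.67 over vehicle 3, the widest gap to that library among the 9 genes. The 25-HC libraries themselves differed 1.97-fold, more than for any of the other 8 genes (1.02-fold to 1.21-fold). An exact two-sided permutation test gave p = 0.1, the smallest possible here.

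Of the kinases, Tbk1 overlapped between the groups on the deposited values and Eif2ak2 did not. This contrast depends on the scaling given below. After median-ratio rescaling both separated, and after correction for transcript length Tbk1 separated and Eif2ak2 overlapped. Tbk1, which activates IRF3, was at 14.1, 16.4 and 14.2 TPM in 25-HC, against 6.58, 1.54 and 14.5 TPM in vehicle 1, 2 and 3. Vehicle 3 lay within the range of the treated libraries. The log2 difference of 1.25 (SE 0.65) was 0.037 against vehicle 3 alone. Vehicle 3 was 9.40-fold above vehicle 2, the widest spread within a group for any of the 9 genes.

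Eif2ak2 was at 3.14, 3.72 and 3.57 TPM in 25-HC, against 1.18, 0.47 and 1.87 TPM in vehicle 1, 2 and 3. The groups did not overlap on the deposited values. Means were 3.48 ± 0.301 TPM in 25-HC and 1.17 ± 0.70 TPM in vehicle (SD, n = 3 each), 2.96-fold apart and 1.86-fold over vehicle 3. The log2 difference was 1.09 (SE 0.32, adjusted p = 0.389 by limma), and 0.64 against vehicle 3 alone. It was 0.39 after the trend with transcript length was removed, and there its groups overlapped. In both groups Eif2ak2 stood next to Rigi in the order of means. The ratio of Rigi to Eif2ak2 TPM was 1.44 to 1.69 in 25-HC and 0.839 to 1.00 in vehicle libraries. This ratio was chosen after the values were seen, carries no test and does not remove the trend with transcript length. The annotated exons of Eif2ak2 overlap those of Gm26637 and n-R5s29 on the opposite strand, genes whose levels were not analysed here.

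The scaling of the libraries moved every difference without changing its sign. After median-ratio rescaling the median difference of all genes was 0.013 and that of the 7 genes 0.67. Rigi, Dhx58, Sting1, Tbk1 and Eif2ak2 then lay higher in every 25-HC library, 5 of 7 beside 18.4% of all genes. After correction for transcript length the medians were 0.671 for the 7 and 0.0026 for all genes. Rigi (0.98), Sting1 (0.73), Dhx58 (0.70) and Tbk1 (0.67) separated there, 4 of 7 beside 17.1% of all genes. In neither setting did any of the 7 pass (lowest adjusted p = 0.166 and 0.145 by limma), and 4 and 3 were higher at an unadjusted p under 0.05, beside 9.49% and 9.17% of all genes. Against vehicle 3 alone, Rigi, Dhx58, Sting1 and Eif2ak2 were higher in every 25-HC library, beside 28.5% of all genes, and Mavs and Cgas were lower in every 25-HC library, beside 45.7%. Without vehicle 3, all 7 were higher in every 25-HC library, beside 59.5% of all genes. With all 6 libraries again and a minimum mean of 5 TPM, 2 of the 5 genes left (Dhx58 and Sting1) were higher in every 25-HC library, beside 21.5% of such genes.

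**Figure D3:**
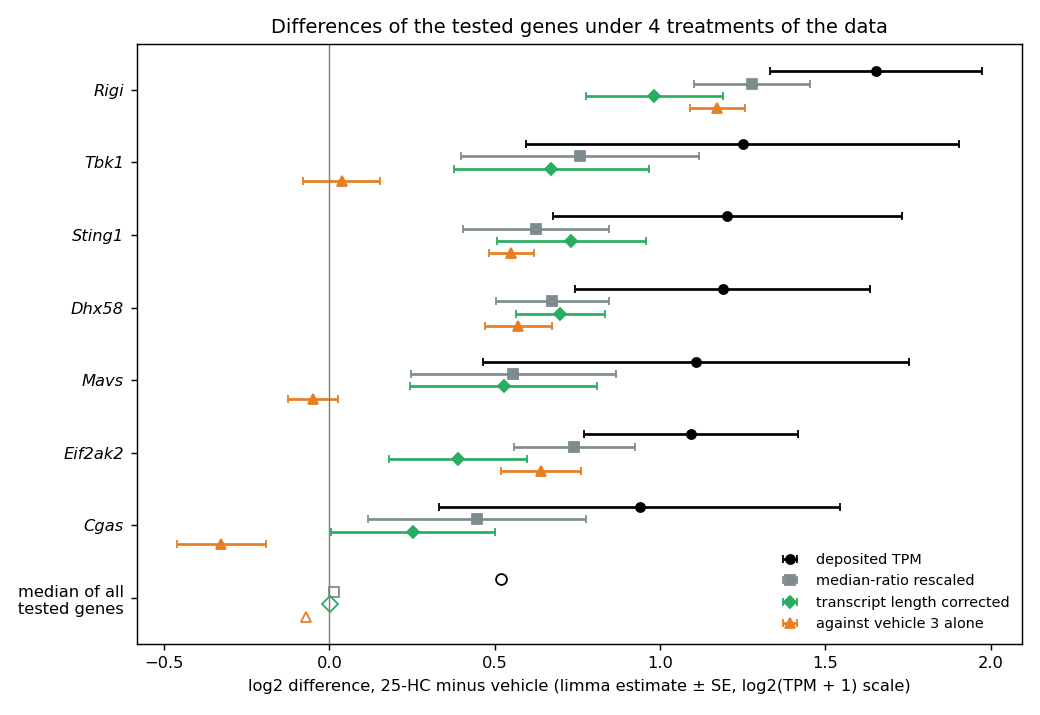
Log2 difference between 25-HC and vehicle for the 7 tested genes (limma estimate ± SE on the log2(TPM + 1) scale) on the deposited values, after median-ratio rescaling, after correction for transcript length, and against vehicle 3 alone, with the median of all tested genes as open symbols. Rigi stays between 0.98 and 1.65, while Mavs (-0.051), Cgas (-0.33) and Tbk1 (0.037) lie near or below 0 against vehicle 3 alone.

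TPM is scaled for length, so levels were set in order, although vehicle 1 and 2 kept a trend with transcript length, whose part in the order there was not tested. In 25-HC the order was Sting1 (31.4 TPM), Mavs (24.2), Tbk1 (14.9), Dhx58 (12.0), Cgas (10.3), Rigi (5.36), Eif2ak2 (3.48), Zbp1 (1.54) and Ifih1 (0.867), and the ranges of no neighbouring pair overlapped. In vehicle the order of the means was Sting1 (15.2 TPM), Mavs (13.8), Tbk1 (7.53), Cgas (6.35), Dhx58 (5.25), Eif2ak2 (1.17), Rigi (1.09), Zbp1 (0.303) and Ifih1 (0.177). Neighbours there overlapped, apart from Dhx58 with Eif2ak2 and Rigi with Zbp1. By their means, the adaptors stood above the sensors in both groups. Dhx58 stood above Cgas in all 25-HC libraries but in 2 of 3 vehicle libraries, and Rigi stood above Eif2ak2 in all 25-HC libraries but in no vehicle library beyond a tie in vehicle 2.

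Likeness over the 6 libraries was described for the tested gene with the smallest p and for the most abundant one, among genes that averaged 5 TPM or more. The 3 genes most like Rigi were Chac1, H2-T24 and Tm7sf2 (Pearson r of 0.9997, 0.9987 and 0.9987 over 6 libraries of log2(TPM + 1)). Of the 8442 genes compared, 609 had r above 0.9 with Rigi. The 3 most like Sting1 were Gm6329, Tmem273 and Cops4 (r of 0.9998, 0.9993 and 0.9993), and 4438 of 8441 genes had r above 0.9 with it. All 6 of these named genes were lowest in vehicle 2, as were Rigi and Sting1. Among the 7 tested genes, r was highest between Mavs and Tbk1 (0.992) and lowest between Rigi and Cgas (0.789). These are descriptions over 6 libraries in 2 groups and carry no test.

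The partners of the sensors were listed by role, 76 genes in 8 lists, of which 63 reached a mean of 1 TPM. None passed over all genes tested by limma, and 12 had an unadjusted p under 0.05, all higher in 25-HC, beside 8.24% of all genes. On the deposited values 26 were higher and 3 lower in every 25-HC library, beside 22.6% and 8.1% of all genes. After median-ratio rescaling the counts were 17 and 9, beside 18.4% and 18.1%. After length correction they were 10 and 8, beside 17.1% and 18.7%, and against vehicle 3 alone 27 and 28, beside 28.5% and 45.7%. The count of higher genes thus fell with rescaling and with length correction, and was much the same against vehicle 3 alone. The causes were not tested.

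The list of other DNA sensors (9 tested of 11) had a median log2 difference of 0.94. In every 25-HC library 6 genes were higher and 1 lower, beside 22.6% and 8.1% of all genes. After median-ratio rescaling the counts were 5 and 2, beside 18.4% and 18.1%. After length correction they were 2 and 2, beside 17.1% and 18.7%, and against vehicle 3 alone 6 and 2, beside 28.5% and 45.7%. Among the 6 was Ifi204, which averaged 1.69 TPM in 25-HC and 0.387 TPM in vehicle libraries. Ifi204 thus reached the minimum mean of 1 TPM only through its 25-HC values. Mndal, of the interferon-inducible IFI200 family, was at 16.4, 17.8 and 21.2 TPM in 25-HC, against 6.04, 3.15 and 5.36 TPM in vehicle 1, 2 and 3 (log2 difference 1.76, SE 0.32, adjusted p = 0.389 by limma). Ifi203 of the same family averaged 9.40 ± 0.731 TPM in 25-HC and 3.41 ± 0.802 TPM in vehicle (SD, n = 3 each). Over vehicle 3 alone these were 3.44-fold and 2.19-fold. Both stayed separated after rescaling, but Ifi203 overlapped after length correction. Members of this family are near-identical in parts, so reads may be shared between them. Pycard, the inflammasome adaptor ASC that RAW264.7 cells are known to lack, was listed at 0 in all 6 libraries, while Aim2, the inflammasome DNA sensor, chosen after its values were seen, overlapped (31.5 ± 5.79 TPM in 25-HC and 15.5 ± 12.0 TPM in vehicle, SD, n = 3 each).

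The cofactors of the RNA helicases (8 tested of 10) had a median of 1.04, and of -0.073 against vehicle 3 alone. In that setting 2 were higher and 5 lower in every 25-HC library, beside 28.5% and 45.7% of all genes. On the deposited values 2 were higher in every 25-HC library, near the share of all genes tested, 22.6%. They were Zc3hav1, the antiviral zinc finger protein ZAP, at 29.0 ± 1.93 TPM in 25-HC and 11.1 ± 8.27 TPM in vehicle, and Nlrc5, a regulator of MHC class I genes, at 5.11 ± 1.10 TPM in 25-HC and 1.94 ± 1.41 TPM in vehicle (SD, n = 3 each). Each was 1.44-fold over vehicle 3. After length correction Zc3hav1 stayed separated and Nlrc5 overlapped. Zcchc3, a cofactor of RNA and DNA sensing, was listed at 0 in all 6 libraries.

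The genes between the adaptors and interferon transcription (12 tested of 12) had a median of 0.77. Of the 12, 5 were higher in every 25-HC library, beside 22.6% of all genes. Irf7, the interferon-inducible relative of IRF3, had the smallest p of this list at a log2 difference of 1.36 (SE 0.25, adjusted p = 0.389 by limma). It overlapped between the groups after rescaling and after length correction. Against vehicle 3 alone it was 3.14-fold higher (log2 difference 1.54). Traf6, a ubiquitin ligase, averaged 2.67 ± 0.335 TPM in 25-HC and 1.09 ± 0.805 TPM in vehicle (SD, n = 3 each), and overlapped after length correction. Irf3 itself, the substrate of TBK1, chosen after its values were seen, was at 44.2, 38.9 and 36.7 TPM in 25-HC, against 49.0, 50.7 and 42.9 TPM in vehicle 1, 2 and 3, with overlap. Of the interferons listed, Ifna1, Ifna2, Ifna4, Ifna5, Ifna6 and Ifna11 were listed at 0 in all libraries. Ifnb1 was at 0.1 TPM in 25-HC 1, against 0.05 TPM in vehicle 2, and listed at 0 in the other 4.

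Handlers of STING and cGAMP (12 tested of 13) had a median of 0.60, near that of all genes. Of the 12, 4 were higher in every 25-HC library, beside 22.6% of all genes. Trim56, a ubiquitin ligase of the pathway, averaged 4.22 ± 1.05 TPM in 25-HC and 1.52 ± 1.77 TPM in vehicle, and Nlrc3, a negative regulator of STING, 3.94 ± 0.153 TPM in 25-HC and 2.21 ± 0.375 TPM in vehicle (SD, n = 3 each). Over vehicle 3 they were 1.19-fold and 1.49-fold. Nlrc3 overlapped after rescaling, and both genes overlapped after length correction.

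Genes that clear or edit nucleic acid (9 tested of 10) were mixed and had a median of 0.48. Of the 9, 4 were higher and 2 lower in every 25-HC library, beside 22.6% and 8.1% of all genes. With rescaling this median was -0.15, with length correction 0.013, and against vehicle 3 alone 0.0066. Samhd1, which hydrolyses deoxynucleotides, was at 58.4, 54.4 and 57.6 TPM in 25-HC, against 34.1, 17.8 and 47.6 TPM in vehicle 1, 2 and 3. Rnaseh2a, the catalytic subunit of ribonuclease H2, was lower, at 93.9, 90.1 and 90.7 TPM in 25-HC, against 157, 349 and 108 TPM in vehicle 1, 2 and 3. The ratio of its means was 0.447, and 0.844 over vehicle 3 alone. The cell death partners of ZBP1 (6 tested of 6) had 1 gene higher in every 25-HC library, beside 22.6% of all genes. It was Ripk1, at 8.53 ± 0.241 TPM in 25-HC and 3.53 ± 3.09 TPM in vehicle. Fadd, the adaptor of caspase-8, overlapped at 3.78 ± 0.548 TPM in 25-HC and 2.63 ± 1.16 TPM in vehicle (SD, n = 3 each). Their median was 0.55.

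The substrate and sister kinases of PKR (7 tested of 7) had a median of 0.90. Of the 7, 4 were higher in every 25-HC library, beside 22.6% of all genes. Ppp1r15a, which directs dephosphorylation of eIF2, was at 59.0, 50.1 and 55.9 TPM in 25-HC, against 31.4, 22.2 and 34.4 TPM in vehicle 1, 2 and 3 (log2 difference 0.90, SE 0.26, adjusted p = 0.389 by limma), 1.60-fold over vehicle 3. Dnajc3, an inhibitor of PKR, averaged 19.6 ± 0.677 TPM in 25-HC and 12.0 ± 4.16 TPM in vehicle (SD, n = 3 each). Both overlapped after rescaling and after length correction.

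**Figure D4:**
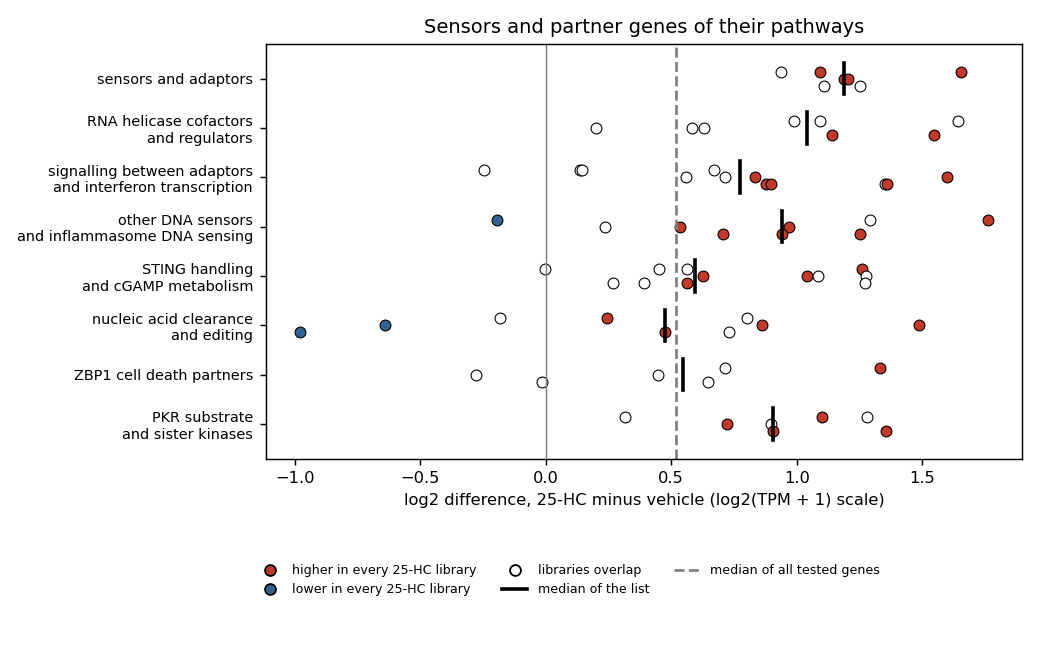
Log2 difference between 25-HC and vehicle (log2(TPM + 1) scale) for the 7 tested sensor and adaptor genes and for 7 lists of partner genes, 1 point per gene, red where every 25-HC library is higher, blue where every one is lower, white where libraries overlap. Bars are list medians (1.19 for the sensors and adaptors, 0.48 to 1.04 for the partner lists) and the dashed line is the median of all tested genes, 0.52.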

How the data were processed

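RNA of RAW264.7 cells was measured in 3 libraries treated with 25-HC and 3 with vehicle for 24 h, made with a TruSeq RNA kit per the labels' protocols. HISAT2, RSEM, StringTie and build GRCm39 are named in the submitters' processing notes, without versions or order. The authors deposited TPM per gene, which keeps no depth. The annotation is not given in the sources used here, nor is the strand setting. Sample titles gave the groups and the replicate numbers.

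Genes averaging 1 TPM or more over the 6 libraries were compared by limma 3.58.1 (R 4.3.3) on log2(TPM + 1) (variance trend, two-sided, all 6 libraries, no block), with Benjamini-Hochberg adjustment over 12092 genes and a threshold of 0.05. This scale understates changes of low genes. Folds are ratios of mean TPM. Alternatives were another pseudocount or filter, median-ratio rescaling, quantile normalization, a loess correction for transcript length (span 0.75, degree 2, longest GENCODE M21 transcript, 92.1% of genes), robust or untrended moderation, a replicate block, leaving out each library, and vehicle 3 alone. The test was also run on simulated data, and the outcome of that run is not given here. The real vehicle libraries were less alike than the treated ones and in part carried a trend with transcript length. No conclusion about the test in these data is therefore drawn from the simulated run. The named partner genes are the 2 of each list with the smallest p among tested genes, plus genes listed at 0, unless said otherwise. The 9 genes and all lists were chosen with earlier results of these data known. Exact permutation tests used scipy 1.17.1 under Python 3.11.15; numpy 2.4.6 and pandas 2.3.3 handled the tables.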

Additional observations from a re-analysis of the deposited data

How the results depend on the processing

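The 7 tested genes kept a positive difference in each alternative run except against vehicle 3 alone, where Mavs was at -0.051 and Cgas at -0.33; that setting drops vehicle 1 and 2, which were lowest for both. None of the 7 passed (0 called), except Rigi without vehicle 3 (range over left-out libraries 0 to 1 called) and Rigi and Sting1 (2 called) against vehicle 3 alone, where 2 genes were lower in every 25-HC library. Their median difference ran from 0.54 with quantile normalization to 1.57 without vehicle 3. Of the 7, 4 were higher in every 25-HC library; with a minimum of 5 TPM it was 2 of the 5 genes left, and over left-out libraries 4 to 7, the 7 coming without vehicle 3. Over all genes the fit called 1 higher and 0 lower. It called 0 higher with a pseudocount of 5, with a minimum of 5 TPM and with the replicate block. The counts of genes higher and lower were 7 and 4 without a filter, where most gene variances were zero and limma warned that its moderation is unreliable. They were 4 and 1 with quantile normalization, 16 and 3 after length correction, and 547 and 765 against vehicle 3 alone. Median-ratio rescaling called 1 lower. Over left-out libraries, 0 to 671 genes were called higher and 0 to 51 lower, both maxima without vehicle 3; without vehicle 2 there were 9 and 4. The causes were not tested. Same-numbered libraries of the 2 groups deviated together with r of -0.0128, 0.0555 and 0.0296 across genes, and unlike-numbered ones with r of -0.0791 to 0.0526. With 3 libraries per group this cannot settle whether the replicate number pairs the libraries. With the replicate block the lowest adjusted p of the 7 by limma was 0.415. The depth is unknown, so no counting error could be given for Ifih1, Zbp1 or any other gene.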
